A study of Mus musculus with 6 samples.

Results

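The proteasome subunit genes were the rows of the deposited gene table whose names begin with Psma, Psmb, Psmc, Psmd, Psme, Psmf or Psmg, together with Adrm1 and Pomp. Psmc3ip, Psmb8, Psmb9 and the named pseudogene copies were left out, which removed 5 rows. The selection gave 50 genes of the 33385 in the table, and all 50 passed the filter on low counts. They comprise 8 alpha and 9 beta genes of the 20S core, 6 ATPases and 12 other subunits of the 19S cap, 7 genes of the activators and their partners, and 8 assembly factors.

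The proteasome is the barrel-shaped protease that degrades proteins tagged with ubiquitin. The outer alpha rings of the 20S core gate its entry, the inner beta rings hold the proteolytic sites, and the 19S cap binds the ubiquitin chain, removes it and unfolds the substrate with a ring of ATPases. In neurons the proteasome turns over synaptic proteins and takes part in synaptic plasticity, and its subunits are made in nearly every cell type.

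RNA was sequenced from the hippocampus of mice with floxed Bcas2 alleles, which Cre recombinase can cut. The knockdown group (n = 3) was injected with AAV2/9-Syn-cre, a virus in which the neuronal synapsin promoter drives Cre, and the control group (n = 3) with a vehicle virus. The controls, labelled WT, carry the floxed alleles too, and cells in which the synapsin promoter is silent keep an intact gene. The labels give no age, sex or strain, and do not say whether each library is a separate animal. BCAS2 belongs to the PRP19 complex, a part of the splicing machinery, so the comparison asks here whether proteasome transcripts differ once hippocampal neurons carry Cre.

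Libraries held 55914768 to 63788474 deposited counts in the knockdown group and 58042064 to 76481458 in the control group. Bcas2 was at 9.08, 9.17 and 8.87 FPKM in knockdown replicates 1 to 3, against 9.87, 9.71 and 9.44 FPKM in control replicates 1 to 3. The knockdown libraries were the 3 lowest, but the log2 fold change of -0.07 (95% interval -0.23 to 0.08, edgeR adjusted p = 0.861) did not pass the test. The word knockdown is therefore used here only as a name for the Cre-injected group, whose libraries are labelled BKO. FPKM is a count scaled by gene length and library depth, so a comparison between genes rests on the lengths used, which are not given here. In knockdown replicate 1, Psmb1 had 5913 counts at 18.8 FPKM and Psmb4 had 5674 counts at 42.4 FPKM. Genes called more or less abundant below are ranked by FPKM, and counts can rank them otherwise. Every marker of hippocampal neurons was present, for example Prox1 of dentate granule cells at 6.06 to 11 FPKM in knockdown libraries and 8.41 to 13.8 FPKM in control libraries. The knockdown libraries and control replicate 1 held no Y-linked counts, whereas control replicates 2 and 3 held 10430 and 10594. Xist was at 49.5, 58.6 and 46.8 FPKM in knockdown replicates 1 to 3 and 43.9 FPKM in control replicate 1. In control replicates 2 and 3 it was at 0.00137 and 0.0213 FPKM. By these genes the knockdown libraries and control replicate 1 are female and control replicates 2 and 3 male, so sex and group are partly confounded. Choroid plexus markers, summed over 8 genes, were at 3.38, 15.6 and 8.82 FPKM in knockdown replicates 1 to 3, against 15.4, 15.2 and 4305 FPKM in control replicates 1 to 3. Control replicate 3 was the highest library for each of the 8, the other controls were level with knockdown replicate 2, and Slc4a5 was at 0 FPKM in knockdown replicates 1 and 3. Mitochondrial genes took 5.96% to 6.18% of counts in the knockdown group and 5.19% to 5.54% in the control group. The part of these differences in the proteasome values was not tested, except where a value without the libraries is given.

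Proteasome transcripts were abundant, and their levels differed little between the groups. Summed over the 50 genes, they stood at 881, 926 and 905 FPKM in knockdown replicates 1 to 3, against 890, 883 and 863 FPKM in control replicates 1 to 3. The groups overlapped in this sum, with knockdown replicate 2 highest and control replicate 3 lowest. As a share of all FPKM, the genes made up 0.322% to 0.334% in knockdown libraries and 0.314% to 0.333% in control libraries. The 48 genes that averaged 1 FPKM or more had 143 to 14969 counts in each library. Their median coefficient of variation within groups was 5.68%, against 9.92% over the 13682 tested genes at that level.

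**Figure D1:**
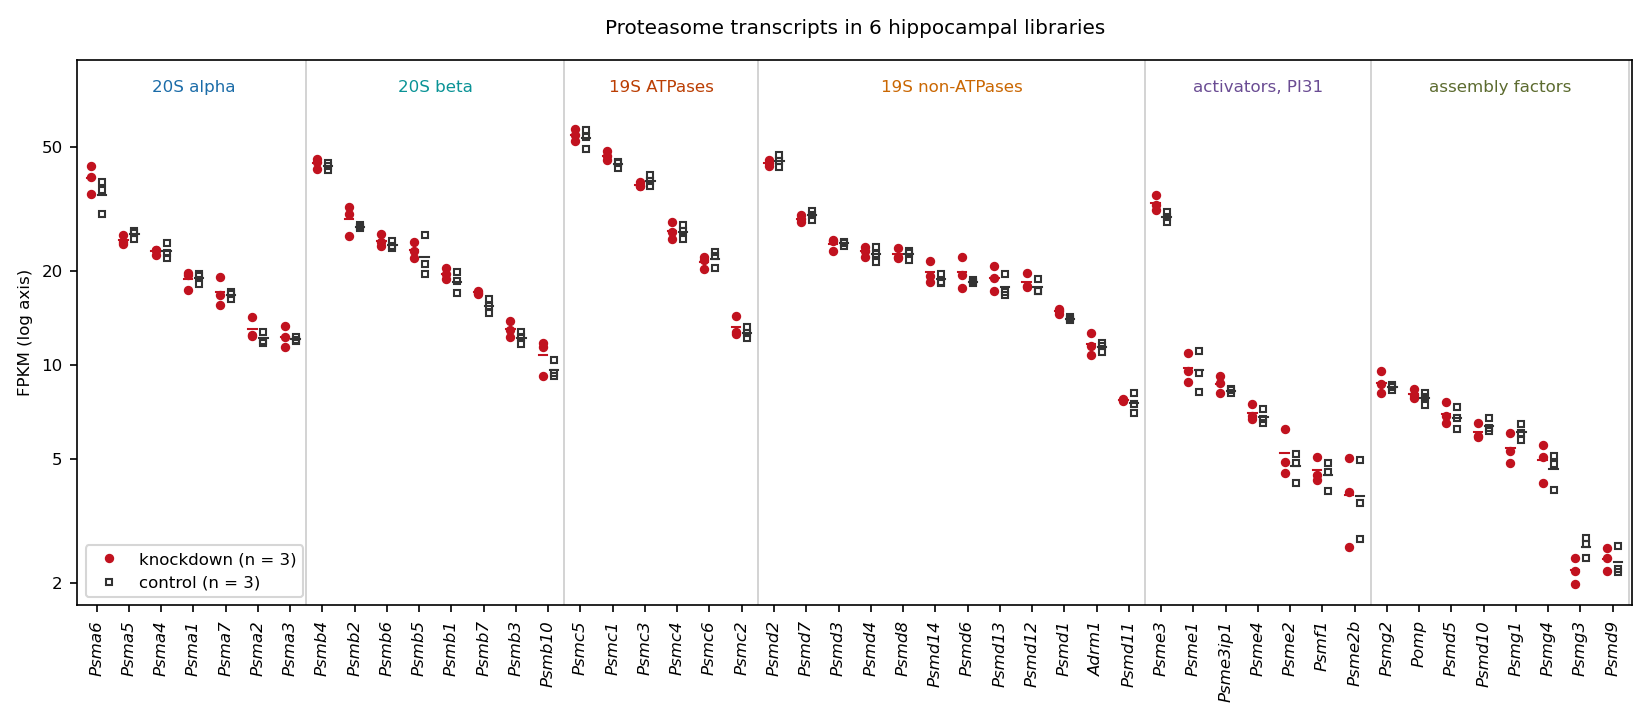
FPKM (log axis) of the 48 proteasome genes that averaged 1 FPKM or more, in order of level within each role; filled circles are knockdown libraries, open squares control libraries, and short lines the group means (n = 3 each). Levels run from 2.37 FPKM for Psmd9 to 53.8 FPKM for Psmc5, and the groups overlap for all but Psmb7, Psmc1, Psmd1 and Psme3.

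No proteasome gene passed the test. edgeR's quasi-likelihood test, adjusted over all 20946 genes tested, called 0 of 50 at an adjusted p under 0.05, and it called 0% of all genes. The smallest adjusted p among the 50 was 0.792. At an unadjusted p under 0.05, 2 of 50 genes (4%) were higher and 0 lower, beside 6.19% of all tested genes, 3.03% higher and 3.16% lower. DESeq2 also called 0 of the 50, with 0 at an unadjusted p under 0.05, while calling 0.353% of all genes. It gave no adjusted p for Psma8 and Psmb11, so these could not be called. In FPKM, the knockdown group lay wholly above the control group for 4 of 50 genes (8%, beside 5.47% of all tested genes), namely Psmb7, Psmc1, Psmd1 and Psme3, and wholly below it for 0 (beside 7.5%).

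For most of these genes, the precision of the comparison bounds the difference between the 2 groups of whole-tissue libraries. It does not bound a change within the cells that carry Cre, or a response to loss of Bcas2. The 95% interval of the fold change lay within 1.5-fold in either direction for 45 of 50 genes (90%), beside 46.9% of all tested genes, and within 1.3-fold for 40 of 50 (80%), beside 30.1%. These shares of all tested genes were not matched for level. Only 13682 of the 20946 tested genes averaged 1 FPKM or more, against 48 of the 50. The 5 with wider intervals were Psma8, Psmb11, Psme2b, Psmg4 and Psmg3, which are among the least abundant members. Such intervals cover the spread between these libraries, which may be technical where libraries are not separate animals.

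The direction of the small differences was mostly the same. The log2 fold change, knockdown over control, was above 0 for 41 of 50 genes (82%) and for 49.9% of all tested genes. Its median was 0.07 over the 50 genes and 0.00 over all genes tested. The genes share libraries and so do not count as separate evidence. Against each gene's mean over the 6 libraries, the median log2 CPM (depth-scaled counts) of the 50 genes was at -0.01, 0.06 and 0.04 in knockdown replicates 1 to 3, against -0.02, -0.03 and -0.05 in control replicates 1 to 3. Knockdown replicate 1 thus lay within 0.01 of control replicate 1, and knockdown replicate 2 stood highest. Knockdown replicate 2 was the highest of the 6 libraries for 23 of 50 genes (46%, beside 21.7% of all tested genes), and control replicate 3 was the lowest for 20 of 50 (40%, beside 18.4%). Without knockdown replicate 2 the median was 0.03, with 33 of 50 genes above 0. Without control replicate 3 it was 0.06, with 40 of 50 above 0. Among the 4 libraries without Y-linked counts, which hold control replicate 1 alone of its group, it was 0.06, with 34 of 50 above 0. In those 4 libraries the median over all genes tested was 0.02, and that of the assembly factors was -0.04.

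**Figure D2:**
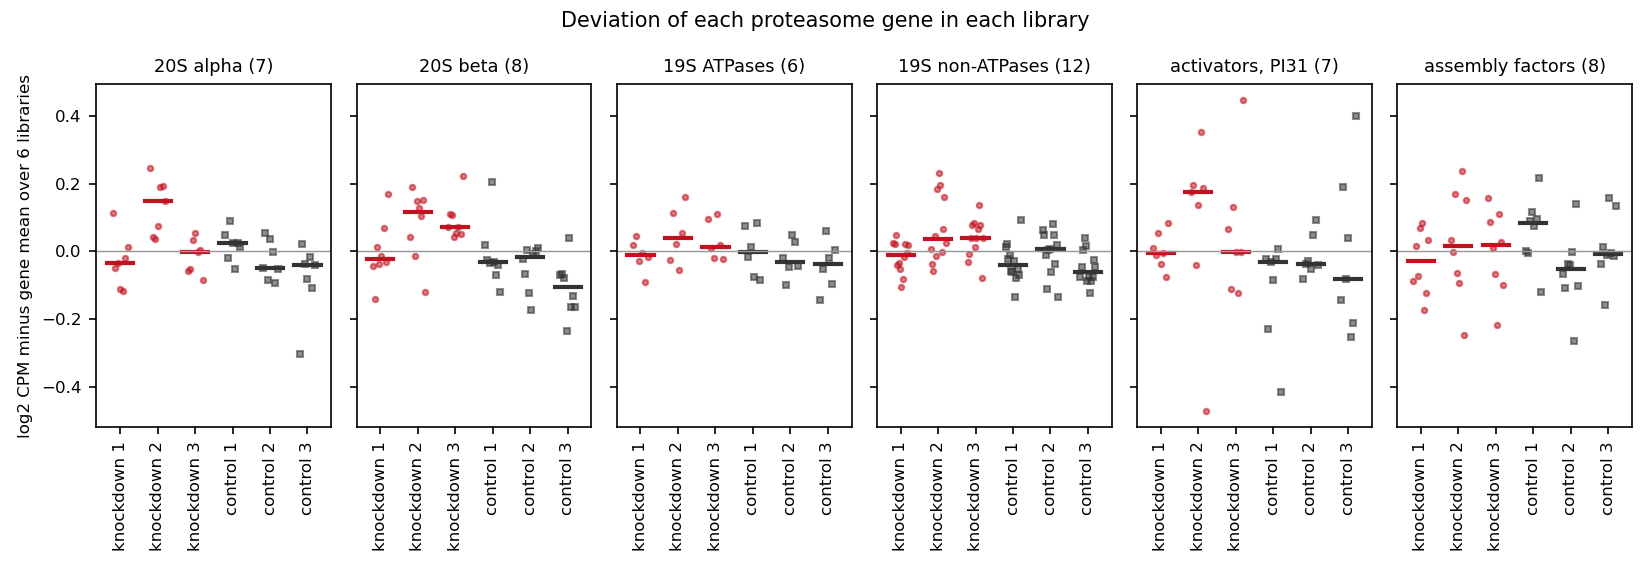
Log2 CPM of each proteasome gene minus its mean over the 6 libraries, by role, for the 48 genes of at least 1 FPKM; points are genes, thick lines the median of the role in that library, with knockdown libraries left of control libraries. Knockdown replicate 2 has the highest median in the 20S alpha genes, the 20S beta genes and the activators, and the widest spread is among the activators.

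Of 7 lists of cell type markers, only that of oligodendrocytes and myelin had summed levels that lay apart between the groups. The hippocampal neuron list had 8 of 12 genes higher, with a median log2 fold change of 0.08 and summed levels of 1178 to 1299 FPKM in knockdown libraries and 1176 to 1246 FPKM in control libraries. The list of oligodendrocytes and myelin had 0 of 8 genes higher, with a median of -0.60 and sums of 605 to 625 FPKM in knockdown libraries and 744 to 1168 FPKM in control libraries, control replicate 1 being the highest. Of these 8 genes, 6 were lower at an unadjusted p under 0.05 (beside 3.16% of all tested genes) and 0 at an adjusted p under 0.05 (edgeR). At that unadjusted p, 2 of 6 astrocyte, 2 of 5 meningeal and 7 of 8 choroid plexus markers were lower too. Only 1 neuronal and 1 microglial marker were higher. Astrocyte markers had 1 of 6 higher, with sums of 268 to 314 FPKM in knockdown libraries and 312 to 339 FPKM in control libraries. Slc1a2, at 142 to 171 FPKM in knockdown and 157 to 159 FPKM in control libraries, was the largest part of those sums. Gfap (log2 fold change -0.62), Aqp4 (-0.80), Gja1 (-0.26) and Slc1a3 (-0.08) lay wholly lower in knockdown libraries, and Slc1a2 and Aldh1l1 overlapped. Microglial markers had 3 of 6 higher (109 to 119 FPKM in knockdown and 101 to 116 FPKM in control libraries), endothelial and mural markers 1 of 5 (34.7 to 46.3 and 44.3 to 47.9 FPKM), and meningeal markers 1 of 5 (8.06 to 16.8 and 7.72 to 18.8 FPKM). In whole tissue, a change in the share of a cell type and a change in RNA per cell cannot be told apart, and the part of cell composition in the proteasome values was not tested.

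The 20S alpha genes, whose products form the gated outer rings, differed among themselves in FPKM more than between groups. The 7 standard genes Psma1 to Psma7 ranged from 12.2 to 37.3 FPKM, 3.06-fold. Their counts lay closer together, at 2240 (Psma5) to 3663 (Psma4) in knockdown replicate 1. The range in FPKM thus depends in part on the gene lengths used in the scaling. Psma6 was the highest in FPKM though not in counts, at 40.0, 43.4 and 35.3 FPKM in knockdown replicates 1 to 3 against 38.4, 36.2 and 30.4 FPKM in control replicates 1 to 3. Knockdown replicate 3 lay below control replicates 1 and 2, so the groups overlapped (log2 fold change 0.20, SE 0.116, edgeR adjusted p = 0.816). Psma2 was at 12.4, 14.2 and 12.5 FPKM in knockdown libraries and at 12.8, 11.9 and 11.8 FPKM in control libraries, a log2 fold change of 0.12 (SE 0.0833). Psma2 overlaps the gene AW209491 on the same strand over 8943 bases, so their reads may be mixed. The other 5 standard alpha genes had log2 fold changes of -0.04 to 0.06, Psma5 being the one below 0. Psma8, the alpha subunit of the testis proteasome, was close to absent at 0.0733, 0 and 0.268 FPKM in knockdown libraries (13, 0 and 41 counts) and 0.0660, 0.0489 and 0.0569 FPKM in control libraries (14, 9 and 10 counts). At those counts no difference in Psma8 was detectable.

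The 20S beta genes include the proteases themselves, and all 7 standard genes had a log2 fold change above 0, with a median of 0.11 (0.06 without knockdown replicate 2) and a range of 0.05 to 0.16. Psmb7, the trypsin-like subunit, had the smallest p of all 50 genes. It was at 17, 17.3 and 16.9 FPKM in knockdown replicates 1 to 3, against 15.5, 16.3 and 14.7 FPKM in control replicates 1 to 3. The groups did not overlap, but the gap between the lowest knockdown and the highest control library was small beside the spread of the controls. The knockdown and control means were 17.1 ± 0.165 and 15.5 ± 0.805 FPKM (SD, n = 3 each). The log2 fold change was 0.16 (SE 0.0667, 95% interval 0.01 to 0.32, unadjusted p = 0.0441, edgeR adjusted p = 0.792). In GRCm39, Psmb7 (ENSMUSG00000026750) spans bases 38478048 to 38534099 of chromosome 2, minus strand. It overlaps Nek6 (mean 3.7 FPKM) on the opposite strand over 6571 bases. With the strand setting of the counting not given in the sources used here, reads within that shared stretch may be mixed. Over 16 alternatives the Psmb7 log2 fold change was 0.12 to 0.20.

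The other catalytic genes overlapped between the groups. Psmb5, the chymotrypsin-like subunit and the main target of proteasome inhibitor drugs, was at 22.0, 24.7 and 23.1 FPKM in knockdown libraries and 26.1, 21.0 and 19.5 FPKM in control libraries. Control replicate 1 was the highest of all 6 and the other controls the lowest, so the log2 fold change of 0.09 (SE 0.135) turned to -0.15 among the 4 libraries without Y-linked counts. Psmb6, the caspase-like subunit, was at 24.7, 24.0 and 26.2 FPKM in knockdown libraries and 24.0, 24.9 and 23.6 FPKM in control libraries (log2 fold change 0.07, SE 0.0677). Psmb10 replaces Psmb7 in the immunoproteasome, the form induced by interferon gamma. It was at 11.4, 9.24 and 11.8 FPKM in knockdown libraries and 9.41, 10.4 and 9.21 FPKM in control libraries (log2 fold change 0.19, SE 0.125, edgeR adjusted p = 0.832), with knockdown replicate 2 down among the controls. The ratio of Psmb10 to Psmb7 was 0.634 ± 0.0863 in knockdown and 0.623 ± 0.0147 in control libraries (SD, n = 3 each).

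The beta genes Psmb1, Psmb2, Psmb3 and Psmb4, whose products have no catalytic site, overlapped as well. Psmb4, the most abundant at 42.4, 44.5 and 45.6 FPKM in knockdown libraries and 44.4, 43.5 and 42.2 FPKM in control libraries, had a log2 fold change of 0.05 (SE 0.0625). Psmb1 was at 18.8, 20.5 and 19.5 FPKM against 18.6, 17 and 19.8 FPKM in the knockdown and control libraries, and Psmb3 at 12.3, 13.8 and 12.9 FPKM against 12.3, 12.8 and 11.7 FPKM. Both had a log2 fold change of 0.11 and overlapping groups. Psmb2, at 25.8 to 32.1 FPKM in knockdown and 27.5 to 28 FPKM in control libraries, also had one of 0.11 (SE 0.099). Psmb11, the catalytic subunit that takes the place of Psmb5 in the thymus, was barely detected, at 0.156, 0.105 and 0.0318 FPKM in knockdown libraries (53, 33 and 10 counts) and 0.134, 0.131 and 0.169 FPKM in control libraries (54, 41 and 52 counts). Its 95% interval spans -1.83 to 0.78 (log2), so no difference was detectable at this depth.

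The base of the 19S cap holds the ATPases that unfold substrates, and 4 of its 6 genes had a log2 fold change above 0, with a range of -0.02 to 0.11. Psmc5 had the highest mean FPKM of the proteasome genes, at 54.3, 52.1 and 56.9 FPKM in knockdown libraries and 56.7, 53.6 and 49.3 FPKM in control libraries. Control replicate 1 lay above all but the highest knockdown library (log2 fold change 0.06, SE 0.0761, and -0.05 among the 4 libraries without Y-linked counts). Psmc1 was at 46.7, 48.4 and 45.2 FPKM in knockdown libraries and 44.8, 42.7 and 44.3 FPKM in control libraries. Its groups did not overlap, and its log2 fold change was 0.11 (SE 0.0606, 95% interval -0.03 to 0.26, unadjusted p = 0.102, edgeR adjusted p = 0.802). Psmc2, the least abundant ATPase, was at 12.8, 14.3 and 12.6 FPKM in knockdown libraries and 12.2, 12.7 and 13.2 FPKM in control libraries. Psmc3, Psmc4 and Psmc6 had log2 fold changes of -0.02, 0.03 and -0.01.

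The other subunits of the cap include scaffolds, ubiquitin receptors and the deubiquitinase Psmd14, and 10 of these 12 genes had a log2 fold change above 0, with a median of 0.05. Psmd1, the large scaffold of the base, had the tightest values of the 50 genes, with a coefficient of variation of 1.39%. It was at 14.6, 14.9 and 15.1 FPKM in knockdown libraries, all above the 14.0, 14.2 and 13.9 FPKM of the control libraries. The log2 fold change was 0.11 (SE 0.0549, 95% interval -0.02 to 0.24, unadjusted p = 0.0806, edgeR adjusted p = 0.798) and 0.08 to 0.12 over 16 alternatives. Psmd2, the other large scaffold, was at 45.3, 44.3 and 43.3 FPKM in knockdown libraries and 45.1, 47.0 and 42.9 FPKM in control libraries, a log2 fold change of 0.00 (95% interval -0.14 to 0.14). Psmd6, a lid subunit, was at 17.7, 22.1 and 19.4 FPKM in knockdown libraries and 18.7, 18.5 and 18.3 FPKM in control libraries, with knockdown libraries both lowest and highest. Psmd13, also of the lid, was at 17.3, 20.7 and 19 FPKM in knockdown libraries and 16.7, 19.6 and 17.1 FPKM in control libraries. Psmd13 shares bases with Sirt3 on the opposite strand and with Gm15542 on the same strand. Psmd11, which links the cap to the core, was the lowest of the role at 7.70, 7.67 and 7.76 FPKM in knockdown libraries and 8.15, 7.02 and 7.49 FPKM in control libraries, a log2 fold change of 0.05 that was -0.07 among the 4 libraries without Y-linked counts. The ubiquitin receptors Psmd4 and Adrm1 had log2 fold changes of 0.05 and 0.06, and Psmd14 of 0.10.

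Among the activators, which can cap the core in place of the 19S particle, Psme3 stood apart in level. Psme3 encodes the nuclear activator PA28 gamma and was at 31.4, 34.9 and 32.5 FPKM in knockdown libraries, against 30.9, 29.8 and 28.7 FPKM in control libraries. The groups did not overlap, with 32.9 ± 1.78 against 29.8 ± 1.07 FPKM (SD, n = 3 each) in the knockdown and control groups. The log2 fold change was 0.17 (SE 0.0692, 95% interval 0.01 to 0.33, unadjusted p = 0.0448, edgeR adjusted p = 0.792), and 0.10 to 0.20 over 16 alternatives. In GRCm39, Psme3 (ENSMUSG00000078652) spans bases 101207039 to 101214363 of chromosome 11, plus strand, and no other gene of the table overlaps it. Psme1 and Psme2 encode the activator PA28 alpha and beta, which interferon gamma induces. Psme1 was at 8.83 to 10.9 FPKM in knockdown and 8.22 to 11.1 FPKM in control libraries, Psme2 at 4.50 to 6.26 FPKM and 4.19 to 5.18 FPKM. The ratio of Psme3 to Psme1 was 3.39 ± 0.251 in knockdown and 3.16 ± 0.586 in control libraries. Psme4, the activator PA200, the inhibitor Psmf1 and the Psme3 partner Psme3ip1 had log2 fold changes of 0.07, 0.07 and 0.10. Psme2b, a copy of Psme2 whose reads may be shared with it, was at 3.92, 2.62 and 5.03 FPKM in knockdown libraries and 2.77, 3.63 and 4.98 FPKM in control libraries.

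Assembly factors were the least abundant role, at 2.37 to 8.65 FPKM, and split in direction with 5 of 8 genes above 0. Psmg1 to Psmg4 encode chaperones of the alpha ring. Psmg3 was at 2.19, 1.99 and 2.42 FPKM in knockdown libraries and 2.79, 2.67 and 2.41 FPKM in control libraries. Knockdown replicate 3 lay just above control replicate 3, and the log2 fold change was -0.23 (SE 0.154, edgeR adjusted p = 0.832). Psmg1 had a log2 fold change of -0.15, while Psmg2, the most abundant at 8.11, 8.72 and 9.55 FPKM in knockdown libraries and 8.66, 8.32 and 8.53 FPKM in control libraries, had one of 0.07. Pomp, the maturation factor of the 20S core, was at 7.83 to 8.36 FPKM in knockdown and 7.44 to 8.12 FPKM in control libraries. The chaperones of the cap base, Psmd5, Psmd10 and Psmd9, had log2 fold changes of 0.07, -0.04 and 0.06. Psmd9 was the least abundant of these, at 2.41, 2.59 and 2.19 FPKM in knockdown libraries and 2.18, 2.22 and 2.63 FPKM in control libraries, and its direction turned without knockdown replicate 2.

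**Figure D3:**
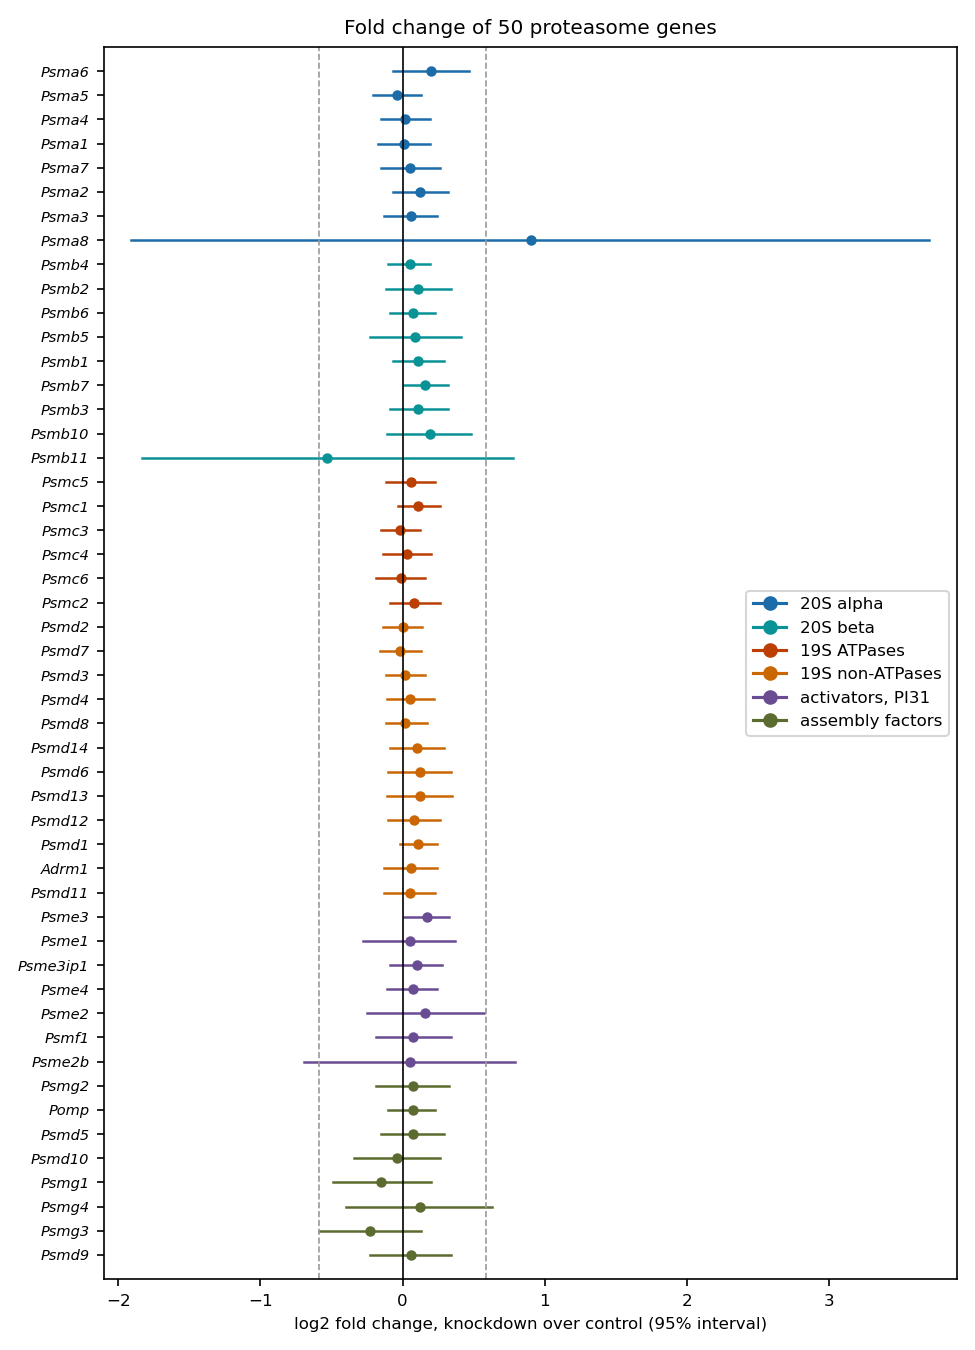
Log2 fold change of the 50 proteasome genes, knockdown over control, from edgeR with 95% intervals, coloured by role; dashed lines mark 1.5-fold. Most intervals are short and include 0, those of Psmb7 and Psme3 start at 0.01, and those of the rarely detected Psma8 and Psmb11 are the widest.

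In mammals, proteasome genes are induced together by the factor NFE2L1, which binds antioxidant response elements with partners of the small MAF family. The RefSeq promoter table (GRCm38.p6) held 42 of the 50 genes, Psmb7 not among them, and the 250 bases before each transcription start were searched on both strands. The core element TGACNNNGC was found for 6 of 42 genes (14.3%) and for 11.5% of the 27025 genes with a promoter, and its strict form TGACTCAGC for 0 of 42 (0.426% of all). The CCAAT box was found for 15 of 42 (35.7%, beside 37.5% of all), and GATTGG, whose complement contains it, for 8 of 42 (19%, beside 16.6%). The ETS family core CCGGAAG was found for 13 of 42 (31.0%, beside 7.83% of all). A match is a stretch of letters and not a measured site, and the set of all genes includes many with no protein product. Windows are shown for the catalytic genes Psmb5 and Psmb6, and for Psmc1 and Psme3, whose groups did not overlap, since each held at least 1 of these motifs, whereas that of Psmd1 held none. In these windows, printed along the gene's own strand and ending at the base before the start, matches are in capitals. Psmb5 (chr14:54617996-54618245, minus strand) and Psmb6 (chr11:70525107-70525356, plus strand) each hold TGACNNNGC. Psmc1 (chr12:100109952-100110201, plus strand) and Psme3 (chr11:101315963-101316212, plus strand) hold the CCAAT box within GATTGG, and CCGGAAG, each read on 1 strand or the other.
Psmb5: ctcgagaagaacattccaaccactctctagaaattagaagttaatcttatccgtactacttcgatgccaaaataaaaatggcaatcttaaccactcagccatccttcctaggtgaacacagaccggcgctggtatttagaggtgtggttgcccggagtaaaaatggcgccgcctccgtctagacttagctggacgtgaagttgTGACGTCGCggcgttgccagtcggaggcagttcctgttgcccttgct
Psmb6: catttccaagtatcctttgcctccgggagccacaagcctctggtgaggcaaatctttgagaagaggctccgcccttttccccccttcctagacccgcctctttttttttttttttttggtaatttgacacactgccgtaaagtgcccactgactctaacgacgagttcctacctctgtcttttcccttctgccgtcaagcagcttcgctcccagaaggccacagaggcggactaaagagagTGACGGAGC
Psmc1: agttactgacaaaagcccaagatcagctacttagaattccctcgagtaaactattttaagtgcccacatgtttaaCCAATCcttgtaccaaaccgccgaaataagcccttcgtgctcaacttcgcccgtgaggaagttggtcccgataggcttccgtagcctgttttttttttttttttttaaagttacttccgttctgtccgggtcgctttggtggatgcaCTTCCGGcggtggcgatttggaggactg
Psme3: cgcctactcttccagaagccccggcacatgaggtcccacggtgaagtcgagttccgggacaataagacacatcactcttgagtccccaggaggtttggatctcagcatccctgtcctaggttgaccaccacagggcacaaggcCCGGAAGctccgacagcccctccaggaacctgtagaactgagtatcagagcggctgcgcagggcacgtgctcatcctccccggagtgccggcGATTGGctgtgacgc

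Among genes that work with the proteasome, none of 31 tested genes in the 3 related lists was called by edgeR at an adjusted p under 0.05. Of 15 genes whose products bind the particle or carry substrates to it, 14 had a log2 fold change above 0, with a median of 0.05, and 2 were higher at an unadjusted p under 0.05, beside 49.9% of all tested genes above 0 and 3.03% higher at that p. Usp14, a deubiquitinase on the cap, was at 18.0, 18.7 and 19.1 FPKM in knockdown libraries, against 16.8, 17.7 and 14.8 FPKM in control libraries (log2 fold change 0.20, SE 0.0823, edgeR adjusted p = 0.792). Ubqln2, a shuttle for ubiquitinated proteins, was at 68.1, 66.5 and 67.1 FPKM in knockdown libraries, against 63.8, 62.8 and 59.5 FPKM in control libraries (log2 fold change 0.14, SE 0.0589, edgeR adjusted p = 0.792). Neither gene's groups overlapped, as for 5.47% of all tested genes in that direction. Of 10 regulators of proteasome genes, 6 were above 0, with a median of 0.03 and 0 at an unadjusted p under 0.05. The log2 fold change was 0.03 (SE 0.0644) for Nfe2l1, the inducer named above, and -0.28 (SE 0.197) for its relative Nfe2l2. Among the small MAF genes it was -0.05 (SE 0.0879) for Mafg, the most abundant of them, 0.27 (SE 0.173) for Mafk and 1.44 (SE 0.788) for Maff. Maff, at 0.250, 1.82 and 0.340 FPKM in knockdown libraries and 0.191, 0.474 and 0.234 FPKM in control libraries, stood out in knockdown replicate 2 alone. Of 6 genes for ubiquitin and its activating enzymes, 5 were above 0, with a median of 0.02. Rps27a, which encodes ubiquitin fused to a ribosomal protein, had a log2 fold change of 0.20 (SE 0.0849, unadjusted p = 0.0481, edgeR adjusted p = 0.792), and Ubb, a polyubiquitin gene at 522 to 557 FPKM in knockdown and 501 to 536 FPKM in control libraries, one of 0.06.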

How the data were processed

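The table holds 6 mouse hippocampal poly(A) RNA-seq libraries, 1 column of estimated counts and 1 of FPKM for each, per the file headers. FPKM is the authors' own scaling by gene length and depth. The deposited estimated counts were whole numbers, used unrounded. Tools named in the submitters' processing notes are HISAT2 2.2.1, StringTie 2.1.6, cutadapt 1.9, edgeR and DESeq2, with the build GRCm39. Their settings, the annotation release and any strand option: not given in the sources used here. Counts were tested with edgeR 4.0.16 in R 4.3.3 (filterByExpr, which kept 20946 genes; TMM, 0.9895 to 1.017; quasi-likelihood F test; Benjamini-Hochberg adjustment at 0.05 over all tested genes). The biological coefficient of variation was 28.6%. Each standard error is the log2 fold change over the root of F. The steps were tested on simulated data. TMM rescales libraries, so a fold change can differ slightly from the ratio of mean FPKM. No 2 libraries were alike within sampling noise (lowest chi-square per gene 25.2).

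The members and gene lists were chosen with earlier results of these data known. Named with values per library were the catalytic genes and Psmb10, the highest and lowest gene of each role, and the 12 smallest p-values. Alternatives were DESeq2 1.42.0, RLE in place of TMM, a replicate block, dropping the count filter, limma 3.58.1 on log2(FPKM + 1) or log2(FPKM + 0.1) with a mean of at least 0.5 FPKM or no filter, counts divided by 4, a term for Y-linked counts, and leaving out each library. The 4 libraries without Y-linked counts were added after seeing the data.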

Additional observations from a re-analysis of the deposited data

How the results depend on the processing

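Under every alternative run, 0 of the proteasome genes tested were called and 0 were lower at an unadjusted p under 0.05. All 50 were tested except in the limma fits with a filter (48, without Psma8 and Psmb11) and with counts divided by 4 (49, without Psma8). DESeq2 gave Psma8 and Psmb11 a p but no adjusted p, so it could not call them. Over all genes, where edgeR called 0, DESeq2 called 74, and edgeR called 1 with counts divided by 4, 1 with a term for Y-linked counts and 0 to 6 when single libraries were left out (6 without control replicate 1). The number of proteasome genes higher at an unadjusted p under 0.05 went from 2 to 0 with no count filter, the replicate block, DESeq2, either limma fit with a filter, the Y-linked term and the 4 libraries that lack Y-linked counts, and was 0 to 2 when single libraries were left out. The median log2 fold change of the genes, 0.07, was 0.04 in limma on log2(FPKM + 1) with and without the filter and on log2(FPKM + 0.1), and 0.03 to 0.09 when single libraries were left out. Over all genes tested, the median was -0.02 in the limma fits with a filter. It was 0.00 in the limma fit without one and in the main edgeR fit. The cause of these changes was not tested. Of 379 values of single named genes under the alternatives, 363 kept their direction. The exceptions were Psma8 (-0.04 with the replicate block, and -0.69 to 1.48 when single libraries were left out, the lowest without knockdown replicate 3), Psmd2, which stayed near 0 (0.00 with the replicate block and with counts divided by 4, -0.04 to 0.03 when single libraries were left out), Psme2b (-0.19 to 0.29 when single libraries were left out, below 0 without knockdown replicate 3 or control replicate 1) and Psmd9 (-0.01 to 0.15, the lowest without knockdown replicate 2). With the Y-linked term, Psmb5 was at -0.15, Psmc5 at -0.04 and Psmd11 at -0.07, while in the 4 libraries lacking such counts they were at -0.15, -0.05 and -0.07. The labels do not say whether the replicate numbers pair the libraries. Deviations of same-numbered libraries from their group means correlated at -0.012, -0.052 and -0.099, against -0.079 to 0.126 for libraries of unlike number. Such values over all genes show no pairing but cannot exclude one that touches few genes. The replicate block gave a median of 0.06. Depth limits most what can be said of Psma8 (0 to 41 counts in a library) and Psmb11 (10 to 54), and Psmg4 (143 to 234) and Psme2b (143 to 261) also had few counts.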

Other observations

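Rows that resemble proteasome genes but fall outside the rule were at low levels. The pseudogene Psma5-ps was at 1.67, 1.61 and 2.07 FPKM in knockdown libraries and 1.58, 2.29 and 2.28 FPKM in control libraries, and Psmb7-ps2 at 0 to 0.107 FPKM and 0.0603 to 0.278 FPKM. Adrm1b, a gene whose name marks it as a relative of the ubiquitin receptor gene Adrm1, was at 0.663, 1.08 and 0.828 FPKM in knockdown libraries and 0.512, 0.447 and 0.698 FPKM in control libraries, with overlapping groups and a log2 fold change of 0.66 (95% interval -0.13 to 1.46, edgeR adjusted p = 0.798).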
